A study of Gallus gallus with 13 samples.

Results

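The study grew primary chicken embryo fibroblasts in 4 states that cross cell density with serum, and all 13 of its 13 arrays were used here as that layout of 2 densities by 2 serum conditions. Cycling cells (3 arrays) were sparse and in serum, and were harvested in log phase. Contact-inhibited cells (4 arrays) had reached 100% confluence in serum, and their medium was renewed so that they would not starve. Serum-starved cells (3 arrays) were growing cultures moved into serum-free medium. Doubly arrested cells (3 arrays) were brought to 100% confluence and then moved into serum-free medium. All 4 groups share their source and upkeep: White Leghorn embryos at day 10, fewer than 10 passages, 41.5 °C, and a medium with insulin, zinc, tryptose phosphate broth and, where serum was present, 5% calf serum. The time spent without serum is not given in the labels. Arrays of a group are described in the labels as biological replicates, with no separate embryo or culture named for each. P-values therefore measure only the spread between these arrays, which may be technical.

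Fibroblasts leave the cell cycle for a resting state, quiescence, when neighbours crowd them or when the growth factors of serum are withdrawn. Serum growth factors act largely through receptor kinases and the ERK pathway, which switches on immediate-early genes such as EGR1 and MYC. Crowding acts through cell contacts and the Hippo pathway, which holds back the coactivator YAP, and it also lowers the supply of oxygen and nutrients per cell in a dense sheet. A layout of 2 by 2 asks whether both signals add, whether either alone is enough, or whether one undoes the other.

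The quantity tested was the interaction: the log2 change on serum removal in confluent cells minus the log2 change on serum removal in sparse cells. It is 0 where both changes add on the log2 scale, positive where serum removal moved a gene further up (or less far down) in confluent cells, and negative in the opposite case. Values are log2(signal + 16), which understates changes of dim genes, and many are given with their standard error (±). A probe set was called at a Benjamini-Hochberg adjusted p under 0.05 from limma, over the 28270 chicken probe sets tested. These arrays measure RNA of whole cultures, so fewer cells of a type and less RNA per cell cannot be told apart.

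The cultures had the profile of fibroblasts in every state. COL1A1 lay at 14423 to 21208 signal units over the 13 arrays and VIM at 13349 to 15527, and 12 of 14 fibroblast markers had a mean signal of at least 1000. TWIST1 of the same list lay at 451 to 1448 units, and PDGFRA, a receptor, was dim at 24.6 to 76.8. Median signal per array was 52.1 to 68.9. Cycling replicate 3 stood apart with the lowest median and an actin 3'/5' ratio of 2.41, against 1.27 to 1.89 in the other arrays. Contact-inhibited replicate 1 lay between its group and the others for many genes below. Its mean log2 level over 22 W-linked probe sets was 6.28, against 7.19 to 7.30 in the other contact-inhibited arrays, 7.07 to 7.12 in cycling arrays and 5.98 to 6.66 in the 6 serum-free arrays. The W chromosome is carried by female birds, and the labels do not give the sex of the embryos. The W-linked level was low in the serum-free arrays and also in contact-inhibited replicate 1, which was in serum. A W-linked probe set had 1188 to 3358 units in the other 6 serum-fed arrays, 84.3 in contact-inhibited replicate 1, 428 in serum-starved replicate 1 and at most 3.08 in the remaining serum-free arrays. A difference in embryo source and an effect of serum therefore cannot be fully told apart. With the W-linked level as a covariate 4206 interactions were called, 3056 of the 3057 reported below among them. The mean W-linked level fell by nearly the same amount on serum removal at both densities. This covariate could therefore hardly move an interaction estimate, and that of EXFABP was -3.74 with it and without it. The overlap of calls is thus no check on a difference in embryo source.

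The effect of confluence depended on whether serum was present. In serum, confluence changed 9831 probe sets (34.8% of those tested). Of these, 5318 were higher (18.8%) and 4513 lower. Without serum the same change of density was called at 272 (0.962%), with 137 higher (0.485%) and 135 lower (0.478%). Serum removal changed 4713 probe sets in sparse cells (16.7%), 2866 upward (10.1%) and 1847 downward (6.53%). In confluent cells it changed 4867 (17.2%), 3005 upward (10.6%) and 1862 downward (6.59%). Few probe sets were therefore called between serum-starved sparse and serum-starved confluent cells, and many between the serum-fed cells. Few calls do not make both serum-free states alike. Among 33 tested amino acid response genes, confluence without serum lowered 7 and raised 0, with a median of -0.59. At an unadjusted p under 0.05, 20 of them were lower and 1 higher. Of all genes, 0.644% were called lower in that comparison and 0.818% higher. The count of 272 was unsteady: it lay between 31 (without doubly arrested replicate 2) and 811 (without contact-inhibited replicate 1), and array weights gave 3695. Confluence in serum was called at 8449 to 10003 when single arrays were left out, and at 12290 with array weights.

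The interaction was called at 3057 probe sets, 10.8% of those tested. Of these 1686 were higher (5.96%) and 1371 lower (4.85%), and 1723 (6.09%) had an interaction of at least 2-fold. With 1 probe set per gene, 1633 of 11498 genes were called (14.2%), 1020 of them higher (8.87%) and 613 lower (5.33%), and 877 (7.63%) at 2-fold or more. The median interaction over all tested probe sets was -0.07. Higher calls made up 55.2% of the probe set calls, and 69.7% when arrays were first centred on their medians. The count fell to 1908, 1930, 1951 and 1991 without serum-starved replicate 3, doubly arrested replicate 1, doubly arrested replicate 2 and serum-starved replicate 2 in turn. It was 4829 without cycling replicate 3 and contact-inhibited replicate 1, and 2908 of the 3057 reported calls were among these. None of these shared calls changed its sign. The interaction accounted for 20.9% of the variance between group means summed over probe sets, next to 37.5% for density and 41.7% for serum, where the array spread alone would give 5.62% for each. At the edges of the thresholds, PLXDC1 had an adjusted p of 0.04997 and EIF6 one of 0.05012, and among called genes CHCHD5, at 1.001, was the nearest above 2-fold and PDLIM4 the nearest below.

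**Figure D1:**
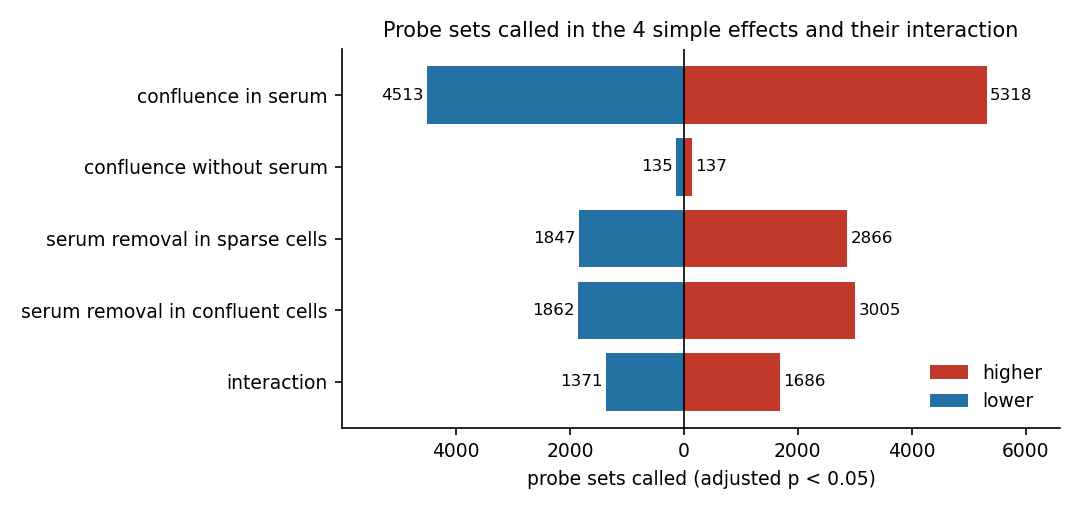
Number of probe sets called higher (right) and lower (left) at an adjusted p under 0.05 for confluence with and without serum, for serum removal in sparse and in confluent cells, and for the interaction. Confluence without serum has the shortest bars, 137 higher and 135 lower, and confluence in serum the longest, 5318 and 4513.

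Among the 1723 calls of at least 2-fold, the doubly arrested state fell short of the sum of the single changes in 1699 (98.6%) and went beyond it in 24. The interaction and the single changes share the cycling, contact-inhibited and serum-starved means, so noise in those means alone favours a shortfall, and this share carries no test. Confluence was the larger of the single changes in 83.0% of them. Serum removal had opposite signs at the 2 densities in 75.6%, and in 16.1% both of these opposite changes were called. The interaction is the difference of these serum effects, so choosing large interactions favours opposite signs. These shares describe the chosen probe sets and carry no test. Over all 28270 probe sets the effect of serum removal in sparse cells correlated at 0.325 with that in confluent cells (Pearson's r across probe sets, given as a description). These comparisons share no array.

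The calls of at least 2-fold were sorted by their 4 group means, with a change of 2-fold as the limit. In the saturating pattern each single arrest and the combination moved a gene at least that far in 1 direction. The combination stayed short of the sum of the single changes, but it could lie beyond or behind either of them. In the antagonistic pattern the doubly arrested mean lay at least 2-fold back towards cycling from the larger single change. In the synergistic pattern the doubly arrested mean lay beyond both single arrests. The synergistic pattern was assigned first, then the saturating and last the antagonistic one. A saturating probe set could therefore also meet the antagonistic definition, and the counts depend on this order. Of the 1723 probe sets, 262 were saturating and higher in arrest (0.927% of all tested) and 188 saturating and lower (0.665%). Confluence alone raised 136 (0.481%) and lowered 240 (0.849%) in the antagonistic pattern, and serum removal alone raised 20 (0.0707%) and lowered 1 (0.00354%). The synergistic pattern held 10 higher (0.0354%) and 4 lower (0.0141%), and 862 (3.05%) met none of these definitions. As the patterns were cut from the same group means, these shares describe the layout and are not tested. An offset of 64, which shrinks all changes, left 1105 calls of at least 2-fold, with 119, 124, 80 and 137 in the first 4 patterns.

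**Figure D2:**
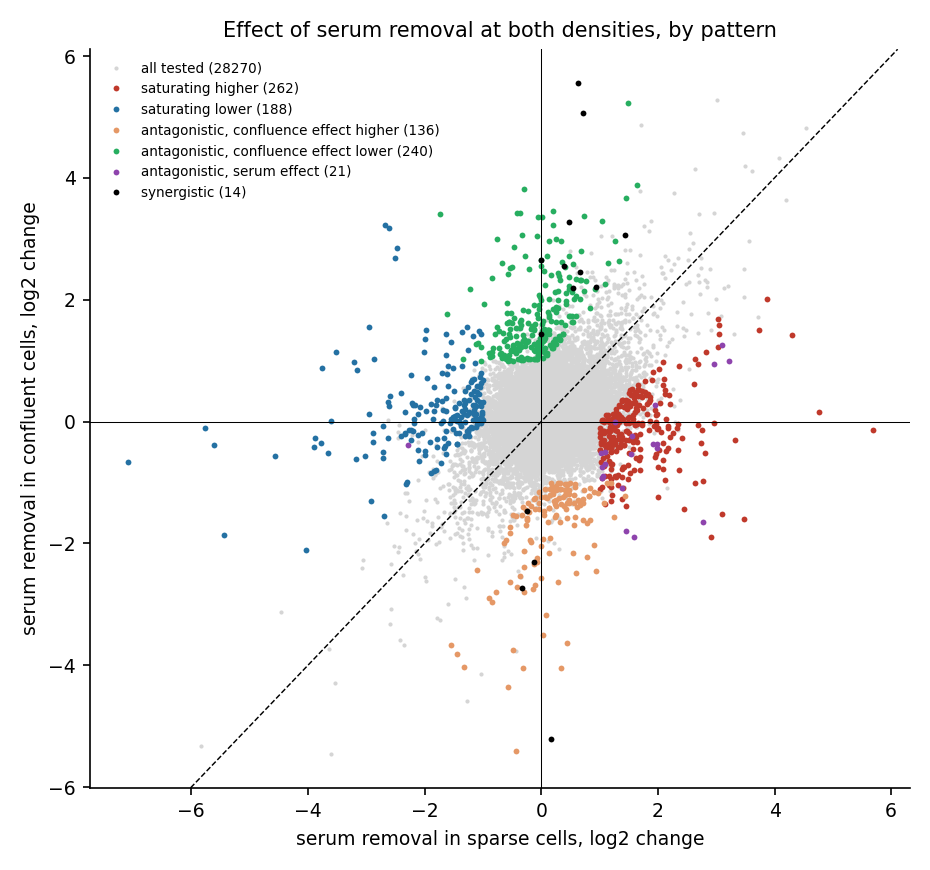
Each point is a probe set, placed by its log2 change on serum removal in sparse cells (x) and in confluent cells (y). The dashed line marks equal changes, where the interaction is 0, and colours mark the patterns, with 262 saturating higher, 188 saturating lower, 136 and 240 antagonistic through confluence, 21 antagonistic through serum and 14 synergistic probe sets.

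Saturating genes that were lower in arrest included several switched almost fully off by either signal. RGS20, a regulator that shortens G protein signals, had 1477, 1759 and 1481 signal units in the cycling arrays. It had 11.3 to 14.2 in the contact-inhibited, 11.7 to 15.3 in the serum-starved and 9.44 to 12.6 in the doubly arrested arrays. All arrested arrays lay far below all cycling arrays and overlapped one another. Confluence in serum and serum removal in sparse cells each changed RGS20 by -5.76 on the log2 scale, so that the interaction was 5.65 ± 0.16 (SE, adjusted p = 5.21e-10). This gene was at the floor of the array in each arrested state, where a further fall could not have been seen.

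The inhibitor of DNA binding genes fell in each arrested state too. ID1, which blocks differentiation factors of the helix-loop-helix class and is a target of BMP signals, had 4671, 6009 and 6325 units in cycling cells. It fell to 92.2 to 99.1 under contact inhibition, 80.8 to 128 under serum starvation and 62.5 to 77.4 under both. These values lie above the filter of 22.7 units, but the filter is a percentile and not a detection limit. The median signal of the arrested arrays was 63.0 to 68.9. Whether ID1 was at its background in these arrays was not tested. Its interaction was 5.22 ± 0.23 (adjusted p = 2.72e-08). ID2, its close relative, had an interaction of 3.89 ± 0.24 (adjusted p = 6.34e-07), with 4355 to 5063 units in cycling cells and 212 to 726 in arrested ones. The mean over the probe sets of ID2 gave a smaller interaction, 2.08. ID2 was lowest in contact-inhibited cells, at 212 to 328, and serum removal raised it there to 498 to 726.

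The 4 genes of the BMP and TGF-beta list with the smallest adjusted p were also lower in every arrested state. BMP2, a ligand, had 507 to 574 units in cycling, 44.4 to 57.2 in contact-inhibited, 149 to 195 in serum-starved and 145 to 199 in doubly arrested cells. TGFB3, also a ligand, had 4236 to 6825 units in cycling cells and 705 to 1190 in the 10 arrested arrays. SMAD6, an inhibitory SMAD induced by BMP signals, had 1827 to 2688 units in cycling cells and 546 to 799 in arrested ones. BAMBI, a decoy receptor, had 1452 to 1964 units in cycling cells and 186 to 442 in arrested ones. In each of these 4 genes no arrested array reached a cycling one, and the interactions were 3.06, 2.13, 1.88 and 2.56. Over the BMP and TGF-beta list of 28 tested genes, 7 interactions were higher and 2 lower (7.14%), where 8.87% and 5.33% of all genes were called, with a median of 0.10 against 0.00 over all genes. Confluence in serum raised 8 genes of the list and lowered 6, with a median of -0.13, where 18.7% and 21.9% of all genes were called.

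DKK4, a secreted Wnt antagonist, had an interaction of 6.44 ± 0.36 (adjusted p = 3.25e-07). Its cycling signals were 4474, 5655 and 4367, and its arrested signals 6.72 to 54.6. The arrested values lie around the filter of 22.7 units, so the size depends on the offset: it was 6.81 with an offset of 1 and 5.56 with one of 64. SERPINB2, an inhibitor of plasminogen activators, took 4 levels without overlap. It had 971 to 2120 units in cycling, 366 to 563 in doubly arrested, 212 to 290 in serum-starved and 11.2 to 63.1 in contact-inhibited arrays. Serum removal lowered it in sparse cells, by -2.61 ± 0.36, and raised it in confluent cells by 3.17 ± 0.34. The serum effect of SERPINB2 thus had opposite signs at the 2 densities, and 3 of its 3 other probe sets were called with the same sign of interaction.

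Some structural genes of muscle, and COL2A1 of cartilage, were also in this pattern. Of 14 tested sarcomere genes, 5 interactions were higher (35.7%, against 8.87% of all genes) and 0 lower, with a median of 0.11. Of these genes 4 were saturating. ACTA1 was not, with 5430 to 7328 units in cycling and 4423 to 4882 in doubly arrested cells. Of 15 tested chondrocyte and bone markers, 5 interactions were lower (33.3%, against 5.33% of all genes) and 1 higher (6.67%). MYL4, an embryonic and atrial myosin light chain, had 929 to 953 units in cycling cells, 5.98 to 11.9 in contact-inhibited, 58.1 to 77.8 in serum-starved and 32.7 to 42.6 in doubly arrested cells. MYH15, a myosin heavy chain, had 762 to 776 units in cycling and at most 75.8 in arrested cells. ACTC1, cardiac actin, had 73318, 72167 and 39089 units in cycling arrays. It had 989 in contact-inhibited replicate 1 but 7447 to 9907 in the other contact-inhibited arrays, and 1126 to 1555 in the serum-free ones. The interaction of ACTC1 was 3.57 ± 0.86 (adjusted p = 0.0188). It was 2.81 without contact-inhibited replicate 1, and not called with quantile normalization (adjusted p = 0.0646). COL2A1, a cartilage collagen, had 9890 to 11111 units in cycling and 579 to 981 in arrested cells, but none of its 4 other probe sets was called, and the mean over its probe sets gave 0.50 (adjusted p = 0.0666). CRMP1, a cytoskeletal adaptor best known from neurons, had 5574 to 6550 units in cycling and 145 to 319 in arrested cells.

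Markers of some other cell types moved with these genes, and others did not. The summed signal of 22 sarcomere genes was 47190 to 82476 in cycling, 4678 to 11646 in contact-inhibited, 3667 to 4722 in serum-starved and 6747 to 6762 in doubly arrested arrays. Without ACTC1, its brightest gene, it was 8101 to 9833 in cycling arrays and 1738 to 5636 in arrested ones. The sum of 17 chondrocyte and bone markers was 12376 to 13914 in cycling arrays and 2312 to 4056 in arrested ones, but COL2A1 carried it. Without COL2A1 it was 2421 to 2803 in cycling, 2835 to 3152 in contact-inhibited and 1733 to 1955 in serum-free arrays, and confluence in serum raised 9 of the 15 tested markers and lowered 2. The sum of 10 epithelial markers was 5170 to 5955 in cycling and 433 to 1714 in arrested arrays, and without KRT7 it was 1174 to 1600 and 343 to 638. The sum of endothelial markers was 1697 to 1913 in cycling and 1206 to 1539 in arrested arrays. The sum of 13 myogenic markers, of which ACTA1 was the brightest, was 6055 to 7904 in cycling arrays. It was 1725 to 3815 in contact-inhibited, 2332 to 2950 in serum-starved and 5143 to 5584 in doubly arrested arrays. Macrophage and leukocyte markers overlapped between cycling and arrested arrays, at 774 to 902 and 733 to 985. Neural and melanocyte markers were higher in arrest, at 772 to 828 and 892 to 1557. The part of all these markers in the result was not tested. Of the defining genes, MYOD1 did not exceed 51.3 units in any array, MYOG 31.5 and MYF5 39.8, and CDH1 and EPCAM, at 18.7 and 17.9 or less, never passed the filter. SOX9, which defines cartilage, passed it in all 13 arrays, at 25.4 to 114 units. So did PTPRC and CSF1R of the macrophage and leukocyte list, at 77.3 to 204 and 67.1 to 118 units.

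Of the saturating genes that were higher in arrest, FAM180A, a predicted secreted protein, had 23.4, 15.8 and 20.9 units in cycling cells. It had 2246 to 3136 in contact-inhibited, 1457 to 2071 in serum-starved and 2202 to 2367 in doubly arrested cells. The ranges of the contact-inhibited and doubly arrested arrays overlapped, the serum-starved range lay below both, and the interaction was -5.82 ± 0.22 (adjusted p = 1.04e-08). The mean over the probe sets of FAM180A gave -3.93. P4HA1, a collagen prolyl hydroxylase, had 3066 to 3474 units in cycling cells and 6864 to 9192 in all arrested ones, with an interaction of -1.30 ± 0.13 (adjusted p = 6.39e-05).

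Other genes of this pattern had a ranking among the arrested states. EXFABP, a secreted lipocalin that carries fatty acids, had 205 to 312 units in cycling, 1206 to 2192 in serum-starved, 4516 to 5403 in doubly arrested and 8712 to 11657 in contact-inhibited cells. The 4 ranges of EXFABP did not overlap. Serum removal raised it by 2.77 ± 0.21 in sparse cells and changed it by -0.98 ± 0.19 in confluent cells, an interaction of -3.74 ± 0.28 with an adjusted p of 3.7e-06. SPON2, a matrix protein of the spondin family, had 138 to 301 units in cycling cells, 2400 to 3244 in serum-starved, 1571 to 4622 in contact-inhibited and 1030 to 1167 in doubly arrested cells. Its doubly arrested level lay below every singly arrested array, and serum removal in confluent cells changed it by -1.60 ± 0.33. BHLHE41, a clock and hypoxia-linked repressor, had 237 to 281 units in cycling cells, 1701 to 3270 in contact-inhibited, 1313 to 1708 in serum-starved and 691 to 1480 in doubly arrested cells. ROPN1L, a sperm flagellum protein, was highest in serum-starved cells (366 to 623 units) and had 53.5 to 208 in contact-inhibited, 93.7 to 125 in doubly arrested and 32.1 to 34.6 in cycling cells.

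Both collagen VI chains named here rose in each arrested state. COL6A1 had 2421 to 2695 units in cycling, 6223 to 6783 in serum-starved, 7995 to 8594 in doubly arrested and 10580 to 11766 in contact-inhibited cells, 4 ranges that did not overlap. Its interaction was -1.74 ± 0.10 (adjusted p = 3.87e-07), and that of COL6A2, which had 2269 to 2809 units in cycling and 6923 to 12757 in arrested cells, was -2.01 ± 0.13. The other tested probe set of COL6A2 was not called (-0.48). Over the collagen and matrix list of 55 tested genes, 15 interactions were lower (27.3%, against 5.33% of all genes) and 5 higher (9.09%, against 8.87%), with a median of -0.38. Under confluence in serum, 27 of the 55 rose and 9 fell, and without serum limma called 2 of them higher and 0 lower, with 2 lower at an unadjusted p under 0.05. Of all genes, 18.7% were called higher under confluence in serum and 0.818% without serum.

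In the antagonistic pattern confluence moved a gene in serum, and at least 2-fold of that change was lost when serum was also removed. CA9, a carbonic anhydrase induced by hypoxia, had 16.1, 29.8 and 28.1 units in cycling cells. Contact-inhibited arrays had 811, 1668, 1476 and 1491, serum-starved arrays 24.2, 57.7 and 39.7, and doubly arrested arrays 74.1, 97.8 and 105. Serum removal thus changed CA9 by -3.63 ± 0.26 in confluent cells, while the change in sparse cells was not called (0.45 ± 0.28), an interaction of -4.08 ± 0.38 with an adjusted p of 2.22e-05. The doubly arrested arrays lay above the cycling and serum-starved ones, though the difference from serum-starved cells was not called.

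FABP4, a fatty acid binding protein of adipocytes and macrophages, had 111 to 261 units in cycling cells. In contact-inhibited cells it had 12876, 11125 and 9554, and 2480 in replicate 1. It had 143 to 633 in serum-starved and 411 to 484 in doubly arrested cells. The contact-inhibited arrays lay above all others, and the interaction was -4.39 ± 0.82 (adjusted p = 0.00458). Without contact-inhibited replicate 1 it was -4.92. The summed signal of 11 other adipocyte markers was 11782 to 13475 in contact-inhibited arrays, 4811 to 7173 in cycling, 8033 to 8849 in serum-starved and 7875 to 8606 in doubly arrested ones. G0S2, the brightest gene of the list, carried much of it, with 7666 to 9470, 3267 to 4350, 4915 to 5773 and 5217 to 5669 units in that order. Of 12 tested adipocyte markers, FABP4 included, limma called 2 interactions lower (16.7%, against 5.33% of all genes). It called 0 higher, also 0 at an unadjusted p under 0.05, against 8.87% of all genes, and the median was -0.19. The part of the other markers in the FABP4 result was not tested. ADIPOQ, the adipocyte hormone, did not exceed 47.5 units in any array, and passed the filter in 12 of them. PPARG, the main transcription factor of fat cells, had 130 to 586 units, PLIN1, which coats lipid droplets, 39.0 to 90.0, and CEBPA 35.1 to 50.7, and these 3 genes passed the filter in all 13 arrays.

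Further genes of several kinds were raised by confluence alone. ACAN, the large cartilage proteoglycan, had 13.3 to 20.6 units in cycling, 288 to 429 in contact-inhibited, and at most 22.2 in serum-starved and 19.3 in doubly arrested cells. Its interaction was -3.53 ± 0.24 (adjusted p = 1.34e-06), and the other tested probe set of ACAN was not called (-0.39). C1QTNF3, a secreted C1q-related protein, had 2898 to 5890 units in contact-inhibited cells and 249 to 475 in all others. DCX, a microtubule protein of migrating neurons, had 131 to 356 units in contact-inhibited cells, 133 in serum-starved replicate 1 and 7.36 to 34.3 in the rest. Its interaction was -3.12 without contact-inhibited replicate 1, but only -1.41 with the mean over its probe sets. KLF9, a glucocorticoid-responsive repressor, had 553 to 1224 units in contact-inhibited, 170 to 258 in cycling, 101 to 140 in serum-starved and 73.5 to 95.6 in doubly arrested cells. STC2, a secreted glycoprotein induced by stress, had 359 to 425, 134 to 163, 55.1 to 96.3 and 28.1 to 48.5 units in the same order of groups. For KLF9 and STC2 the doubly arrested cells had the lowest range of the 4 groups.

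The hypoxia list held most of its interactions on the negative side. Of 28 tested genes, 12 were called lower (42.9%, against 5.33% of all genes) and 3 higher (10.7%, against 8.87%), with a median of -0.57. Confluence in serum raised 17 of them and lowered 4, against 18.7% and 21.9% of all genes called. Without serum limma called 0 higher and 0 lower, against 4 and 2 at an unadjusted p under 0.05. In that comparison 1.46% of all genes were called. EPAS1, a hypoxia-inducible transcription factor, went the other way, with 91.3 to 112 units in cycling and 0.37 to 32.0 in arrested cells and an interaction of 2.39 ± 0.27. ERO1A, an oxidase of the endoplasmic reticulum, had 794 to 1000 units in cycling cells and 1420 to 3483 in arrested ones, and its other tested probe set was not called (-0.58). ENO2, a glycolytic enzyme, had 1560 to 2419 units in contact-inhibited and 308 to 1300 in serum-free cells, against 163 to 220 in cycling cells, and an interaction of -2.67 ± 0.47 (adjusted p = 0.00317).

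Genes that confluence lowered in serum, and that lay at least 2-fold back towards cycling when serum was also removed, formed the larger antagonistic class. In 221 of its 240 probe sets (92.1%) the doubly arrested mean lay within 2-fold of cycling, and in 234 (97.5%) within 2-fold of the serum-starved mean. The median change under confluence in serum was -1.63 in this class, so its definition largely sets the first of these shares. Neither share carries a test. LRRC32, which displays latent TGF-beta at the cell surface, had 1606 to 1706 units in cycling cells. It had 130, 75.5, 81.8 and 80.3 in contact-inhibited, 1240 to 1391 in serum-starved and 1068 to 1199 in doubly arrested arrays. Only the contact-inhibited arrays were low, and the interaction was 3.79 ± 0.22 (adjusted p = 3.87e-07). Its 2 other probe sets gave 1.11 and 2.31 and were not called.

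MGP, an inhibitor of calcification that binds BMPs, had 4485 to 4808 units in cycling cells. It had 357 in contact-inhibited replicate 1 and 137 to 164 in the other arrays of that group, 2315 to 8307 in serum-starved and 2475 to 3134 in doubly arrested cells. Serum removal raised MGP by 3.81 ± 0.37 in confluent cells, and its change in sparse cells was not called (-0.30 ± 0.40). WISP2, a matricellular protein of the CCN family, had 172 to 237 units in 3 contact-inhibited arrays, 870 in replicate 1 of that group, and 1176 to 3344 in all others. TNFRSF11B, osteoprotegerin, had 268 to 671 units in contact-inhibited, 1025 to 1952 in cycling, 767 to 1052 in serum-starved and 2454 to 3720 in doubly arrested cells. TNFRSF11B thus had its highest range in doubly arrested cells.

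Of the 12 YAP targets and contractile genes with a called interaction, 2 were in this class, 1 was saturating, 3 met no definition and the others were under 2-fold. ANKRD1, a classical YAP target, had 1604 to 2032 units in cycling, 38.8 to 52.6 in 3 contact-inhibited arrays and 482 in replicate 1, 259 to 869 in serum-starved and 886 to 1315 in doubly arrested cells. Its interaction was 5.13 ± 0.91 (adjusted p = 0.00317), and 5.88 without contact-inhibited replicate 1. ACTA2, smooth muscle actin, had 2135 to 2408 units in cycling, 442 to 862 in contact-inhibited, 1911 to 2292 in serum-starved and 1839 to 2203 in doubly arrested cells. TAGLN and MYL9, which bind or drive actin in smooth muscle, had interactions of 1.19 ± 0.13 and 1.37 ± 0.12. Of 29 tested genes of this list, limma called 12 interactions higher (41.4%) and 0 lower, with a median of 0.48. The shares of all genes were 8.87% and 5.33%. At an unadjusted p under 0.05, 2 genes of the list were lower, and array weights called 2. ACTG2, a second smooth muscle actin, was saturating instead, with 8604 to 10322 units in cycling and 792 to 2129 in arrested cells.

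EGR1, DUSP6 and MYC fell under confluence in serum, while their changes on serum removal in sparse cells were not called. EGR1, an immediate-early zinc finger factor, had 4778 to 4971 units in cycling, 1013 to 1483 in contact-inhibited, 5193 to 7243 in serum-starved and 5831 to 7951 in doubly arrested cells. Its serum-free arrays lay above every array grown in serum, although the change in sparse cells was not called (0.30, adjusted p = 0.212). The interaction of EGR1 was 2.09 ± 0.21 (adjusted p = 5.54e-05). DUSP6, the phosphatase that ERK induces against itself, had 422 to 531 units in cycling, 206 to 230 in contact-inhibited, 448 to 582 in serum-starved and 677 to 740 in doubly arrested cells. MYC, the growth-promoting transcription factor, had 918 to 1551 units in cycling, 324 to 463 in contact-inhibited, 1184 to 1998 in serum-starved and 1394 to 1620 in doubly arrested cells. Over 32 tested genes of the growth factor response list, limma called 13 interactions higher (40.6%) and 0 lower, with a median of 0.64. The shares of all genes were 8.87% and 5.33%. At an unadjusted p under 0.05, 1 gene of the list was lower, and array weights called 1. Serum removal in confluent cells raised 14 of the 32 and lowered 3, where 13.5% and 7.34% of all genes were called.

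CDKN2B, an inhibitor of the G1 kinases CDK4 and CDK6, moved in both directions. It had 1748 to 1949 units in cycling, 179 to 204 in contact-inhibited, 4913 to 5129 in serum-starved and 2550 to 2679 in doubly arrested cells. These 4 ranges did not overlap. Confluence lowered it in serum by -3.14 and without serum by -0.93, and serum removal raised it by 1.46 in sparse and by 3.67 in confluent cells. The interaction was 2.21 ± 0.13 on the log2 scale (adjusted p = 5.38e-07). On the untransformed signal it had the opposite sign, -770 units, where the gain in units was larger in sparse cells. CDKN2A had 1660 to 1877 units in cycling, 2583 to 2784 in contact-inhibited, 5268 to 5698 in serum-starved and 3808 to 4491 in doubly arrested cells. The interaction of CDKN2A was -0.99 ± 0.12. CDKN1A, which encodes p21, was not called (0.07 ± 0.32, adjusted p = 0.925), nor was CDKN1B, which encodes p27 (-0.25 ± 0.18, adjusted p = 0.399), nor CCND1, which encodes cyclin D1 (0.31 ± 0.16, adjusted p = 0.229). Array weights called CDKN1B (-0.38, adjusted p = 0.04) and CCND1 (0.39, adjusted p = 0.0317), and the mean over its probe sets called CCND1 too (0.56, adjusted p = 0.0427).

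TYMS, which makes thymidylate for DNA, had 988 to 1168 units in cycling, 161 to 268 in contact-inhibited, 607 to 888 in serum-starved and 581 to 754 in doubly arrested cells, with an interaction of 1.96 ± 0.27 (adjusted p = 0.000528). TK1, which salvages thymidine, had 887 to 1459 units in cycling and 238 to 420 in arrested cells. Of 40 tested replication genes, limma called 17 interactions higher (42.5%, against 8.87% of all genes), and the median was 0.88. It called 0 lower (against 5.33%), also 0 at an unadjusted p under 0.05 and with array weights. The median replication gene changed by -1.07 under contact inhibition, -0.47 under serum starvation and -0.76 under both. Removing serum from confluent cells raised 9 replication genes and lowered 1, where 13.5% and 7.34% of all genes were called.

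The median changes of the mitotic genes from cycling cells were -0.70 under contact inhibition, -1.21 under serum starvation and -1.59 under both. Removing serum from confluent cells lowered 27 of 45 tested mitotic genes and raised 1, against the same shares of all genes, 7.34% and 13.5%. No test compared the replication with the mitotic list. For mitosis limma called 9 interactions of the 45 higher, where 8.87% of all genes were, and 0 lower. None was lower at an unadjusted p under 0.05, and array weights called 1. Those 9 fell to 4 without serum-starved replicate 2, doubly arrested replicate 1 or doubly arrested replicate 2, and to 5 without cycling replicate 2 or serum-starved replicate 3. CDK1, the mitotic kinase, had 3753 to 5121 units in cycling, 2093 to 2620 in contact-inhibited, 1557 to 1956 in serum-starved and 1124 to 1237 in doubly arrested cells. Its interaction was not called (0.42 ± 0.19, adjusted p = 0.176), but it was with array weights (0.57, adjusted p = 0.00215), with arrays centred on their medians (0.55, 0.0442), without cycling replicate 3 (0.57, 0.0368) and without that array and contact-inhibited replicate 1 (0.51, 0.0242). SKA3, a kinetochore protein, had 1082 to 1224 units in cycling and 205 to 430 in arrested cells, and an interaction of 1.39 ± 0.29.

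**Figure D3:**
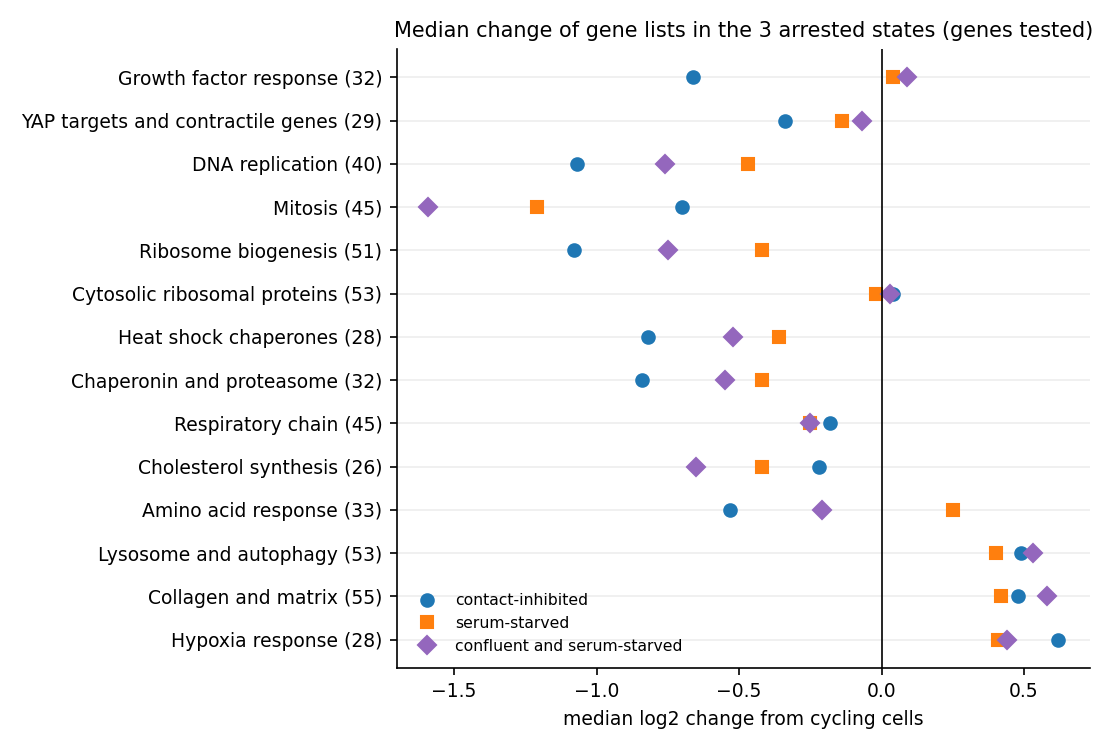
Median log2 change from cycling cells over the tested genes of 14 lists in contact-inhibited, serum-starved and doubly arrested cells, with the number of genes in brackets. For ribosome biogenesis the medians were -1.08, -0.42 and -0.75, so that the doubly arrested cells lay between the single arrests, while for mitosis they were -0.70, -1.21 and -1.59.

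Of 51 tested ribosome biogenesis genes, which make and fold ribosomal RNA in the nucleolus, confluence in serum lowered 42 and raised 0, against 21.9% and 18.7% of all genes, and limma called 25 interactions higher (49.0%) and 0 lower. Both counts of 0 were also 0 at an unadjusted p under 0.05. The interaction was called higher in 8.87% of all genes and lower in 5.33%. NAT10, an RNA acetyltransferase of the nucleolus, had 677 to 1022 units in cycling, 89.2 to 178 in contact-inhibited, 411 to 500 in serum-starved and 247 to 382 in doubly arrested cells. NOLC1, a nucleolar phosphoprotein, had 602 to 884 units, 181 to 206, 401 to 452 and 266 to 334 in the same order. Both were lowest in contact-inhibited cells without overlap, and the other tested probe set of each was not called (0.28 for NAT10 and 0.16 for NOLC1). Removing serum from confluent cells raised 13 of the 51 and lowered 0, or 1 at an unadjusted p under 0.05, with a median of 0.36, where 13.5% and 7.34% of all genes were called. The count of 25 fell to 12, 14, 14 and 16 without serum-starved replicate 3, serum-starved replicate 2, doubly arrested replicate 1 and doubly arrested replicate 2.

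Of 53 tested cytosolic ribosomal protein genes, limma called 0 interactions higher, also 0 at an unadjusted p under 0.05, and 1 lower, with a median of 0.02. That gene was RPS13, at 144 to 149 units in doubly arrested cells and 659 to 997 in all other arrays, an interaction of -2.18 ± 0.20. None of its 4 other probe sets was called (-0.33 to 0.30), and the mean over its probe sets gave -0.38 (adjusted p = 0.0722).

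Chaperones, which fold new and damaged proteins, had large shares of calls. Of 28 tested heat shock chaperones, limma called 15 interactions higher (53.6%) and 0 lower, and of 32 chaperonin and proteasome subunits 18 (56.2%) and 0. The shares of all genes were 8.87% and 5.33%. Both counts of 0 were also 0 at an unadjusted p under 0.05, and array weights called 1 heat shock chaperone lower. HSPA8, the constitutive HSP70, had 8856 to 11456 units in cycling, 2143 to 2490 in contact-inhibited, 7150 to 9214 in serum-starved and 5368 to 7089 in doubly arrested cells, an interaction of 1.65 ± 0.18 (adjusted p = 8.66e-05). DNAJA4, an HSP40 co-chaperone, had 3404 to 3990 units in cycling, 618 to 850 in contact-inhibited, 2366 to 3309 in serum-starved and 2221 to 2519 in doubly arrested cells. CHORDC1, a co-chaperone of HSP90, was saturating, with 958 to 1017 units in cycling and 166 to 361 in arrested cells. CCT7, a subunit of the chaperonin that folds actin and tubulin, had 4063 to 4623 units in cycling, 1535 to 1778 in contact-inhibited, 2077 to 2506 in serum-starved and 1779 to 1868 in doubly arrested cells.

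**Figure D4:**
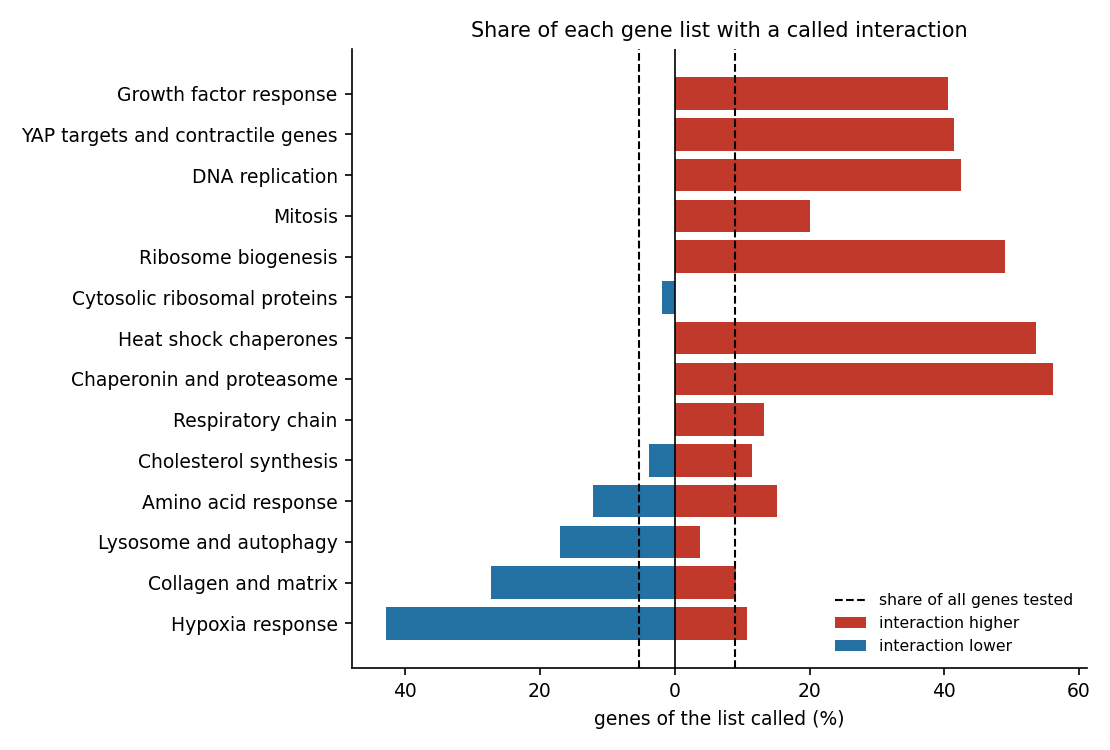
Share of the tested genes of each of 14 lists with the interaction called higher (right) and lower (left), with dashed lines at the shares of all tested genes, 8.87% and 5.33%. Chaperonin and proteasome subunits reach 56.2% higher, and the hypoxia list 42.9% lower.

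Of 26 tested cholesterol synthesis genes, 3 interactions were higher (11.5%, against 8.87% of all genes) and 1 lower (3.85%, against 5.33%). HMGCS1 (-0.19 ± 0.24) was not called. INSIG1, which holds back sterol synthesis, had 5056 to 5390 units in contact-inhibited cells and 1674 to 3303 in all others, an interaction of -1.05 ± 0.21. SCD, a fatty acid desaturase, was not called (-0.12 ± 0.25). Of 33 tested amino acid response genes, 5 interactions were higher (15.2%, against 8.87% of all genes) and 4 lower (12.1%, against 5.33%). MTHFD2, a mitochondrial folate enzyme, had 253 to 331 units in contact-inhibited cells, 907 to 1121 in doubly arrested, 1456 to 1891 in cycling and 1576 to 2271 in serum-starved cells. Of 53 lysosome and autophagy genes 9 interactions were lower (17.0%, against 5.33% of all genes) and 2 higher (3.77%, against 8.87%). Among 28 interferon response genes limma called 2 interactions higher (7.14%, against 8.87% of all genes). It called 0 lower (against 5.33%), with 3 lower at an unadjusted p under 0.05. Of 18 lipid carriers 6 interactions were lower (33.3%) and 1 higher (5.56%), against the same shares of all genes. FABP4 and EXFABP are among the 6. The 1 called higher was APOA1, the main protein of high-density lipoprotein, which had 75.9 to 121 units in contact-inhibited, 341 to 493 in cycling, 1196 to 1536 in serum-starved and 1459 to 1736 in doubly arrested cells.

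Genes that met the antagonistic definition through serum removal were few, and 11 of the 20 probe sets raised in this way were also called for confluence in serum. FGF18, a fibroblast growth factor of skeletal development, had 0 to 3.08 units in cycling, 7.18 to 22.0 in contact-inhibited, 134 to 157 in serum-starved and 38.7 to 45.8 in doubly arrested cells. The cycling and contact-inhibited arrays are all under the filter of 22.7, so their order is not read. The interaction was -2.23 ± 0.23 (adjusted p = 5.82e-05). NELL2, a secreted neural protein, had 1407 units in serum-starved replicate 1 and 344 in replicate 2, the lowest of that group, with 291 to 477 in contact-inhibited, 110 to 132 in doubly arrested and 64.2 to 82.7 in cycling cells. ALDH1L2, a mitochondrial folate enzyme, had 766 to 944 units in serum-starved, 229 to 630 in contact-inhibited, 300 to 466 in doubly arrested and 146 to 263 in cycling cells. DDX4, a germ cell helicase, and HARBI1, a protein derived from a transposase, had their doubly arrested values near those of cycling cells. DDX4 had 23.9 to 35.9 units in doubly arrested and 127 to 214 in serum-starved cells, and HARBI1 had 169 to 297 and 501 to 594. In contact-inhibited replicate 1 DDX4 and HARBI1 were below the cycling range, at 30.1 and 153 units, against 204 to 276 and 641 to 745 in the other arrays of that group. In those other arrays HARBI1 lay above its serum-starved range, and DDX4 reached above its own. The placing of DDX4 and HARBI1 under serum removal therefore leaned on contact-inhibited replicate 1. PDLIM3, an actin-linked protein, was the 1 gene lowered, with 19.7 to 34.9 units in serum-starved and 61.0 to 92.8 in doubly arrested cells, against 154 to 242 in cycling cells. The call of PDLIM3 was lost without doubly arrested replicate 2 (adjusted p = 0.0557), and that of HARBI1 without doubly arrested replicate 1 or 2 (0.0554 and 0.0507).

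The synergistic pattern held 6 genes higher (0.0522% of all genes) and 4 lower (0.0348%). CCK, the gut and brain peptide cholecystokinin, had 726, 992 and 961 units in cycling cells. It had 364, 48.1, 43.4 and 38.8 in contact-inhibited, 800, 1608 and 2013 in serum-starved and 3869, 4810 and 4659 in doubly arrested cells. Confluence lowered CCK in serum, the serum effect in sparse cells was not called (0.63 ± 0.58), and the doubly arrested arrays lay above all others. The interaction was 4.93 ± 0.79 (adjusted p = 0.00176), and 5.60 without contact-inhibited replicate 1, the array nearest to the cycling level. The difference between doubly arrested and serum-starved cells, 1.68 ± 0.58, was itself not called (adjusted p = 0.21).

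CYP24A1, which breaks down vitamin D, had the same order of groups, with 0 to 4.15 units in 3 contact-inhibited arrays and 141 in replicate 1. It had 146 to 246 units in cycling, 105 to 571 in serum-starved and 941 to 1113 in doubly arrested cells, and an interaction of 4.36 ± 1.03 (adjusted p = 0.0165), or 5.14 without contact-inhibited replicate 1. The doubly arrested arrays of CYP24A1 lay above all others, though the difference from serum-starved cells was not called (1.61 ± 0.75, adjusted p = 0.385). ADAMTSL1, a matrix protein related to ADAMTS proteases, had 365, 418 and 462 units in doubly arrested cells and 48.3 to 111 in all other arrays. Its interaction was 2.67 ± 0.24 (adjusted p = 2e-05), while its 2 other probe sets gave 0.11 and 0.52 and were not called. TMEM140, a membrane protein of unknown role, had 230 to 241 units in doubly arrested, 93.6 to 104 in serum-starved, 46.4 to 69.0 in cycling and 23.7 to 36.4 in contact-inhibited cells, 4 ranges without overlap and an interaction of 1.79 ± 0.20. COLEC10, a secreted collectin, had 223 to 319 units in doubly arrested and 22.1 to 143 in all others, and its call (2.16, adjusted p = 0.0347) was kept, among the fits that left out 1 array, only without cycling replicate 3 or contact-inhibited replicate 1. COLEC10 also lost its call with an offset of 1 (2.5, adjusted p = 0.0602) and with the replicate block (2.06, adjusted p = 0.0551). Its difference between doubly arrested and serum-starved cells was not called (1.15 ± 0.44, adjusted p = 0.263).

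OSTN, osteocrin, a peptide hormone of bone and muscle, had 4936, 4861 and 5510 units in contact-inhibited replicates 2 to 4 and 659 in replicate 1. It had 183 to 191 in cycling, 177 to 237 in serum-starved and 57.5 to 72.5 in doubly arrested cells. Its interaction was the most negative of this class at -5.37 ± 0.80 (adjusted p = 0.00105), and -6.10 without contact-inhibited replicate 1. The doubly arrested cells were not called for OSTN against serum-starved (-1.45 ± 0.58, adjusted p = 0.295) or cycling cells (-1.29 ± 0.58, adjusted p = 0.111). SLC10A4, a vesicle transporter, had 117 to 160 units in doubly arrested and 387 to 1215 in all others, an interaction of -2.40 ± 0.30. The mean over the probe sets of SLC10A4 gave -1.11. SH2B1, an adaptor of receptor kinases, was dim, at 0.11 to 14.8 units in doubly arrested cells, under the filter, and 31.2 to 68.1 in all others. Its interaction was -1.23 ± 0.31, and its other probe set was not called (0.12). The call of SH2B1 was lost with an offset of 1 (adjusted p = 0.0965) and without serum-starved replicate 2 (0.0569). It was also lost with the mean over its probe sets (-0.55, adjusted p = 0.101). RPS13, described above, was the fourth. The synergistic count of 14 probe sets became 27 without contact-inhibited replicate 1, 25 without serum-starved replicate 3 and 8 with the W-linked level as a covariate.

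**Figure D5:**
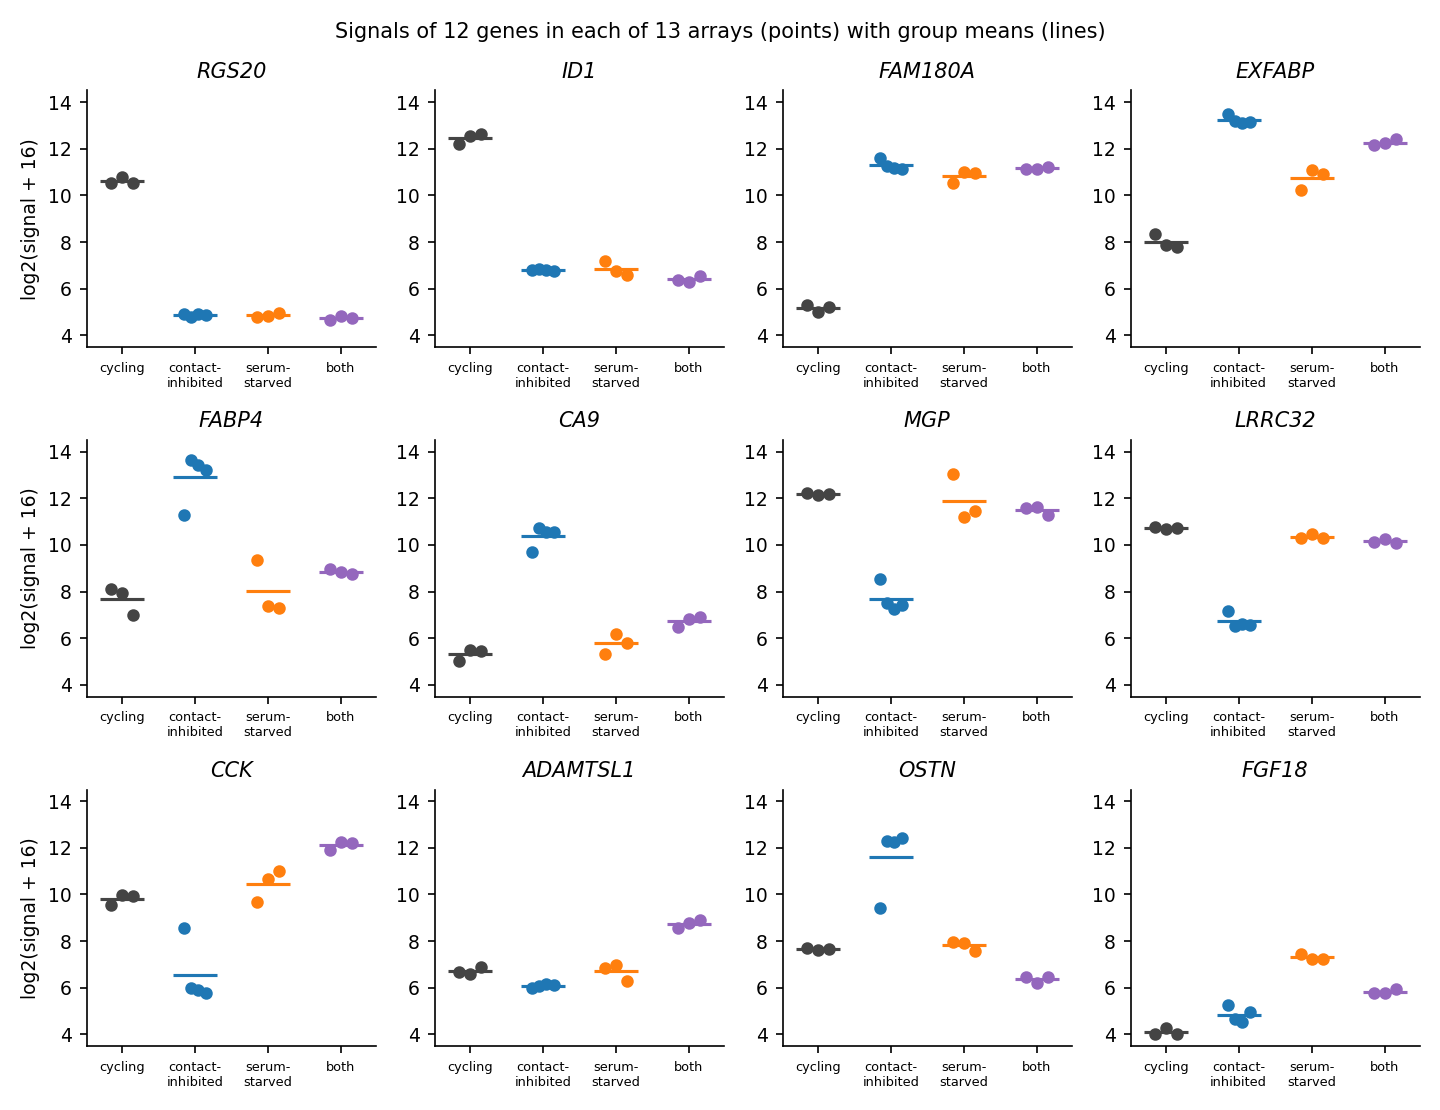
Log2(signal + 16) of 12 genes in each array (points, ordered by replicate) with the mean of each group (line) for cycling, contact-inhibited, serum-starved and doubly arrested cells (both). The top row holds saturating genes, the middle row antagonistic genes whose contact-inhibited arrays stand alone, and the bottom row the synergistic CCK, ADAMTSL1 and OSTN with FGF18, where serum removal alone gave the highest level. Contact-inhibited replicate 1, the first of the 4 blue points, lies apart from its group in FABP4, CCK and OSTN.

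Some genes with large serum effects had no called interaction. CPB1, a carboxypeptidase, had 1527 to 3212 units in the 6 serum-free and 71.1 to 107 in the 7 serum-fed arrays. Serum removal raised it by 4.54 ± 0.25 in sparse and by 4.82 ± 0.23 in confluent cells, and the difference, 0.27 ± 0.34, was not called (adjusted p = 0.663). GAS2, a growth-arrest gene that binds the cytoskeleton, rose by 3.48 and 2.51 (interaction -0.97 ± 0.50, adjusted p = 0.248). The interaction of GAS2 was called without contact-inhibited replicate 1 (-1.41, adjusted p = 0.000252), without that array and cycling replicate 3 (-1.40, 0.000111), with the W-linked covariate (-0.97, 0.0114) and under array weights (-1.25, 0.00153). COL1A1, which had no large serum effect, was not called either (-0.11 ± 0.16, adjusted p = 0.721). It had 14532 to 16168 units in cycling and 14873 to 17999 in serum-starved cells. Confluent cells had 14423 to 21208 with serum and 15806 to 17430 without. In simulated data with 67 interactions of each size among 28270 probe sets, 38.8% of those of 2-fold and 89.6% of those of 4-fold were recovered. With so few interactions the adjusted p is stricter than in the data, and the shares pool probe sets of unlike spread. They therefore do not give the power at these genes, whose standard errors are given above. A small interaction may still have been missed at these genes.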

How the data were processed

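Whole-culture RNA of 13 primary fibroblast cultures was measured on chicken arrays. The deposited values are probe set intensities on a linear scale, made by the authors with Affymetrix Expression Console 1.1 and PLIER, per the submitters' processing notes; how arrays were scaled to each other is not given in the sources used here. The number of arrays limits the precision.

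Intensities were taken as log2(signal + 16). Of 38535 probe sets, 37693 are chicken ones, and those with a mean log2 value at or above the 25th percentile (5.27, a signal of 22.7) were kept. limma 3.58.1 (R 4.3.3) fitted 1 mean per group over all 13 arrays with eBayes and a variance trend, two-sided, with Benjamini-Hochberg adjustment over 28270 probe sets. Symbols came from the platform annotation: 27166 probe sets had 1 symbol, 177 several and 10350 none. A gene was represented by its tested probe set with the highest mean.

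The members of each pattern, the gene lists and the tests were chosen with earlier results of these data known. Named genes were, per pattern and direction, the 5 with the largest interaction, per list up to 4 with the smallest adjusted p among those called, and 24 genes fixed by name, from which the text takes those described. No set test was run. The fit was tested on simulated data with known interactions.

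Replicate numbers are shared between groups in the labels. Deviations of same-numbered arrays correlated at -0.293 to 0.382 over 18 pairs, with 4 over 0.1, so the numbers were not taken to pair the cultures. Alternatives were other scaling, offsets, filters, no variance trend, array weights, leaving out arrays, a replicate block and a covariate for the W-linked level.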

Additional observations from a re-analysis of the deposited data

Results flagged for a closer look

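The interaction itself was called at 3057 probe sets, where the effect of serum removal differed between confluent and sparse cells by a test of that difference.

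In the contact-inhibited group, the only one with 4 arrays, 1 array stood apart by Dixon's criterion in 13 of the 85 genes of the text (15.3%), where chance gives about 1 in 20, and in 11 of the 13 it was replicate 1. In that array CCK had 364 signal units, CYP24A1 141, OSTN 659 and ANKRD1 482. MGP had 357 units there, WISP2 870, LRRC32 130 and TNFRSF11B 671. NOLC1 had 181, KLF9 1224 and CDKN1A 4405. The array farthest from the others was replicate 4 for DUSP6, at 230 units, and replicate 2 for ENO2, at 2419. Over all tested probe sets, contact-inhibited replicate 1 lay far from the other 3 arrays of its group at 1208 (4.27%), against 0.516% to 1.17% for each of the others.

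Of 689 probe sets with no chicken ID that are not controls, 1 had a called interaction in a fit of their own, and its highest group mean was 43.5 units.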

How the results depend on the processing

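Array weights raised the called probe sets to 7138 for the interaction (3901 higher, 3237 lower), 10145 for serum removal in confluent and 7882 in sparse cells, and 3695 for confluence without serum, with 30 synergistic and 205 antagonistic probe sets raised by confluence. Leaving out cycling replicate 3 and contact-inhibited replicate 1 together gave 4829 interactions (2602 higher, 2227 lower), 2019 calls for confluence without serum, 30 synergistic and 216 antagonistic probe sets raised by confluence. An offset of 64 left 1105 interactions of at least 2-fold, and 8 synergistic, 119 and 124 saturating (higher and lower), 80 and 137 antagonistic through confluence and 10 through serum. With a pattern limit of 1.5-fold these were 71, 634, 549, 301, 531 and 56. The W-linked level as a covariate gave 596 calls for confluence without serum, 8 synergistic and 366 antagonistic probe sets lowered by confluence. With the replicate number as a block, the interaction was called at 2290 and confluence without serum at 95. The cause of these shifts was not tested.

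Leaving out single arrays gave 1908 to 3787 interactions (1074 to 2002 higher, 829 to 1785 lower), 1307 to 1880 of at least 2-fold, 3171 to 6533 calls for serum removal in confluent and 2552 to 5922 in sparse cells, 8449 to 10003 for confluence in serum and 31 to 811 without serum. The patterns ranged from 11 to 27 synergistic, 183 to 365 and 143 to 235 saturating, 102 to 206 and 191 to 281 antagonistic through confluence, 16 to 25 through serum, and 603 to 927 unsorted.

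The interaction of CDKN2B changed sign on the untransformed signal (-770 units). Interactions that were not called and lay near 0 changed sign in some settings. Without single arrays CPB1 gave -0.06 to 0.46, CDKN1A -0.06 to 0.33 and COL1A1 -0.18 to 0. SCD gave 0.02 and COL1A1 0.03 with arrays centred on their medians, and CDKN1A -0.03 with quantile normalization and -0.06 with the replicate block. CYP24A1 was not called with the replicate block (4.04, adjusted p = 0.052).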

Other observations

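Some further genes of the lists are given as values. DKK3 and SPP1 met none of the pattern definitions above, while LIF met the saturating one, lower in arrest. DKK3, a secreted protein related to Wnt antagonists, had its highest range in doubly arrested cells, 3276 to 3828 units, against 983 to 2192 in all other arrays, and an interaction of 1.11 ± 0.19. SPP1, osteopontin, had 527 to 667 units in contact-inhibited, 149 to 169 in cycling and doubly arrested, and 71.8 to 91.3 in serum-starved cells, with an interaction of -0.96 ± 0.18. LIF, a cytokine, had 239 to 292 units in cycling, 11.2 to 48.6 in contact-inhibited, 106 to 115 in serum-starved and 80.8 to 92.3 in doubly arrested cells, and its other tested probe set was not called (0.26).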
